A study of Drosophila melanogaster with 21 samples.

Results

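Pgk, Gdh and Nup50 are 3 genes whose signal was lower in CoVa RNAi cells than in GFP RNAi cells at every time and in every experiment. The members are the probesets, that is, the sets of short probes that measure 1 or more transcripts, whose only annotated gene symbol is Pgk, Gdh or Nup50. Each gene had 1 such probeset (1639766_at for Pgk, 1640835_a_at for Gdh and 1630141_at for Nup50), so the members are 3 of 11981 named genes on the array. All 3 passed the filter on low values, which kept 9858 probesets that reached an intensity of 100 on at least 3 of the 20 RNAi arrays. The genes were chosen because earlier results on these arrays showed a low signal in CoVa RNAi cells from the first time on. Differences between CoVa RNAi and GFP RNAi are therefore given as a description, with no test.

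Total RNA of S2 cells, a blood-cell-like line made from Drosophila melanogaster embryos, was hybridized to Affymetrix Drosophila Genome 2 microarrays, with 21 arrays in all. CoVa RNAi cells (10 arrays) received interfering RNA, transcribed in vitro, with a sequence specific to CoVa. GFP RNAi cells (10 arrays) received RNA with a GFP sequence that the fly genome lacks. Both were transfected transiently with calcium phosphate and grown in the same medium, in 3 separate time courses. Cells of experiment 1 were collected 48 and 168 hr after transfection, and those of experiments 2 and 3 after 72, 96, 120 and 168 hr. CoVa RNAi and GFP RNAi arrays that share experiment and time form 10 matched pairs. 1 array of untransfected cells at 48 hr, from experiment 1, was described but not tested.

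Pgk encodes phosphoglycerate kinase, the glycolytic enzyme that passes a phosphate from bisphosphoglycerate to ADP and so makes ATP without oxygen. Gdh encodes glutamate dehydrogenase of the mitochondrial matrix, which turns glutamate into α-ketoglutarate and ammonia and so feeds carbon of amino acids into the TCA cycle. Nup50 is a mobile nucleoporin of the nuclear basket, known in vertebrates as a cofactor of importin α in the import of proteins into the nucleus. CoVa, the target of the RNAi, encodes a subunit of cytochrome c oxidase, the complex of the electron transport chain that hands electrons to oxygen.

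The signal intensities are linear values, and a log2 difference is log2(intensity + 32) of CoVa RNAi minus that of GFP RNAi in a matched pair, or, over all arrays, between the means of the conditions. The pairwise correlations of the 21 arrays lay between 0.929 and 0.991. The array medians ran from 68.4 to 94.4 in CoVa RNAi cells and from 67.5 to 89.3 in GFP RNAi cells. The ratio of actin signal near the 3′ end to that near the 5′ end, a sign of RNA integrity, ran from 1.51 to 2.15 (median 1.81) in CoVa RNAi cells and from 1.60 to 1.86 (median 1.71) in GFP RNAi cells. Of 6 plasmatocyte markers, Pxn, srp and ush passed the filter on low values while Hml, NimC1 and Sr-CI did not, and the summed signal of the 6 was 2652 to 6842 in CoVa RNAi cells and 2519 to 7039 in GFP RNAi cells. Pxn was lower in 7 of 10 pairs, by at least 1.5-fold in 6 of them (log2 difference -0.83, adjusted p = 0.404 in limma's fit over all arrays). In that fit srp (-0.09, adjusted p = 0.816) and ush (-0.09, adjusted p = 0.565) did not pass, and each was lower in 8 of 10 pairs. Of 4 lamellocyte markers, the sum was 1422 to 4340 in CoVa RNAi cells and 1107 to 4245 in GFP RNAi cells. Most of it came from msn, which was lower in 8 of 10 pairs (log2 difference -0.07, adjusted p = 0.922 in limma's fit over all arrays). PPO3 rose (0.69, adjusted p = 0.0313) but was lower in 2 of 10 pairs. ItgaPS4 had 222 ± 182 in CoVa RNAi cells and 29.1 ± 24.1 in GFP RNAi cells, where the mean lay under the filter's level of 100, and atilla did not pass the filter. The part of either measure in the values of Pgk, Gdh and Nup50 was not tested. In RNA of whole cultures, fewer cells that express a gene and less RNA of it per cell cannot be told apart.

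The target itself differed between time courses. In experiment 1 the log2 difference of CoVa was 0.19 for 48 hr and -1.87 for 168 hr. In experiment 2 the values for 72, 96, 120 and 168 hr were -1.32, -1.26, -1.58 and -3.43. Those of experiment 3, likewise from 72 to 168 hr, were -0.41, -0.53, -0.66 and -0.87. CoVa RNA was thus lower in 9 of 10 pairs, by at least 1.5-fold in 7 of them, and these pairs served as the scale against which the 3 genes were set.

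Pgk had signals of 1584 at 48 hr and 1078 at 168 hr in CoVa RNAi cells of experiment 1, against 2719 and 3179 in GFP RNAi cells. In CoVa RNAi cells of experiment 2 the signal was 755, 1051, 999 and 1412 for 72, 96, 120 and 168 hr, against 2715, 3149.6, 2946 and 3005 in GFP RNAi cells. In CoVa RNAi cells of experiment 3 its signal was 755, 1133, 978 and 1193 for these times, against 2957, 3441, 2939 and 3327 in GFP RNAi cells. The 2 conditions did not overlap: the highest CoVa RNAi value, that of 48 hr, lay below the lowest GFP RNAi value. Such a lack of overlap, here and for Gdh and Nup50, was not counted over all probesets. It follows in part from the choice of these genes. The ratio of CoVa RNAi to GFP RNAi was smallest at 72 hr, at 0.278 in experiment 2 and 0.255 in experiment 3, and was nearer to 1 at 168 hr, at 0.470 and 0.359. In experiment 1 the order in time was the other way round, with a ratio of 0.583 at 48 hr and 0.339 at 168 hr. Over the 10 pairs the log2 difference was -1.48 ± 0.33 (SD, n = 10 pairs).

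Gdh had signals of 923 at 48 hr and 387 at 168 hr in CoVa RNAi cells of experiment 1, against 2299 and 3081 in GFP RNAi cells. In CoVa RNAi cells of experiment 2 the signal was 792, 700.3, 602 and 683 at 72, 96, 120 and 168 hr, against 2318, 2869.9, 2852 and 3314 in GFP RNAi cells. In CoVa RNAi cells of experiment 3 it was 530.2, 688, 697 and 578 at those times, against 2087, 2860.2, 3151 and 3059 in GFP RNAi cells. Here too no CoVa RNAi value reached any GFP RNAi value, and the ratio became smaller with each later time in all 3 experiments. Experiment 1 gave 0.401 for 48 hr and 0.126 for 168 hr. Experiment 2 gave 0.342, 0.244, 0.211 and 0.206 from 72 to 168 hr, and experiment 3 gave 0.254, 0.240, 0.221 and 0.189. Gdh had the lowest mean of the 3 genes, with a log2 difference of -2.05 ± 0.44 (SD, n = 10 pairs).

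Nup50 had signals of 617 at 48 hr and 405 at 168 hr in CoVa RNAi cells of experiment 1, against 1335 and 1121 in GFP RNAi cells. In CoVa RNAi cells of experiment 2 the signal was 559, 408, 358 and 378 at 72, 96, 120 and 168 hr, against 1463, 1284, 1209 and 1232 in GFP RNAi cells. In CoVa RNAi cells of experiment 3 it was 345, 398, 328 and 254 at those times, against 1352, 1358, 1324 and 1293 in GFP RNAi cells. The CoVa RNAi values again lay below every GFP RNAi value, with the lowest of all in experiment 3, the time course with the smallest loss of CoVa RNA. Experiment 1 gave a ratio of 0.462 for 48 hr and of 0.361 for 168 hr. The ratio lay between 0.296 and 0.382 in experiment 2 and between 0.196 and 0.293 in experiment 3. The mean log2 difference was -1.64 ± 0.32 (SD, n = 10 pairs).

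**Figure D1:**
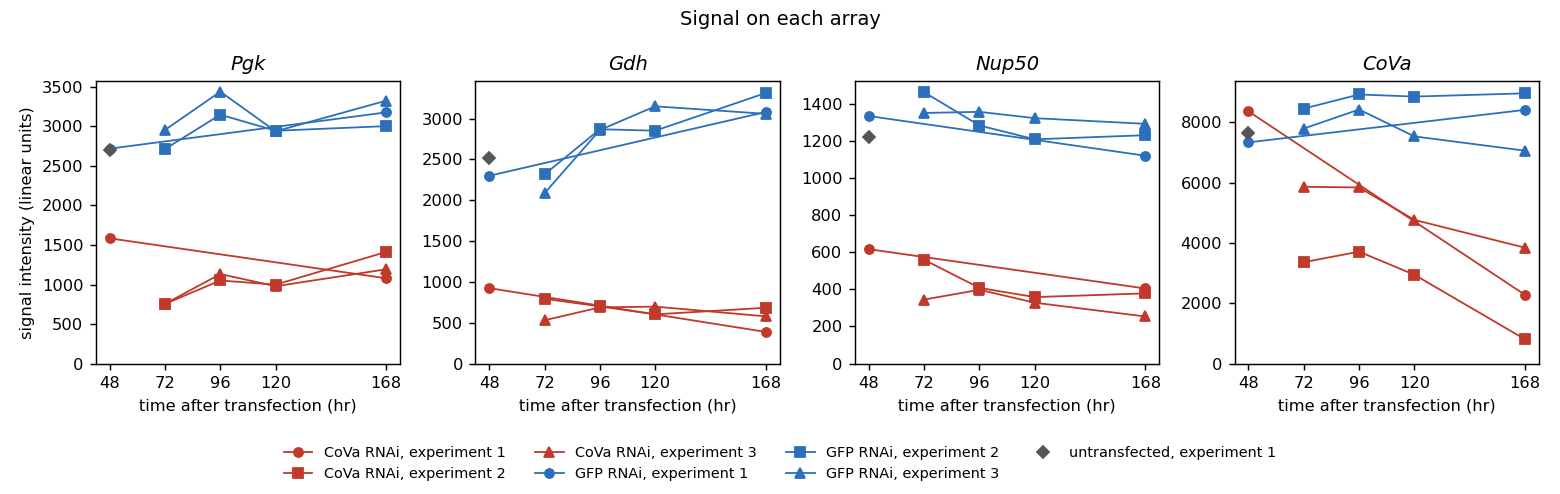
Signal intensity (linear units, axes from 0) of Pgk, Gdh, Nup50 and CoVa against hours after transfection, 1 point per array, with CoVa RNAi in red, GFP RNAi in blue, the untransfected array as a gray diamond, and a symbol and line for each experiment. For the first 3 genes every red point lies below every blue one from the first time on, whereas the red CoVa points start at 8364 at 48 hr, among the blue ones, and spread down to 804.

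The level of the 3 genes varied more in CoVa RNAi cells than in GFP RNAi cells. The coefficient of variation over the 10 arrays was 23.8% in CoVa RNAi cells and 7.84% in GFP RNAi cells for Pgk. It was 22.2% in CoVa RNAi cells and 14.8% in GFP RNAi cells for Gdh, and 26.5% in CoVa RNAi cells and 7.25% in GFP RNAi cells for Nup50. On the log2 scale the SD over CoVa RNAi arrays was 0.33 for Pgk, 0.32 for Gdh and 0.34 for Nup50, against a median of 0.26 over all probesets tested. In these cells 65.9%, 64.8% and 67.7% of the probesets tested had a smaller SD than Pgk, Gdh and Nup50. CoVa RNA itself had an SD of 0.92 there. Over GFP RNAi arrays the SD was 0.11 for Pgk and 0.10 for Nup50, with only 16.2% and 13.1% of probesets below them, and 0.22 for Gdh, against a median of 0.24. Among the 4931 probesets with a mean of 500 or more in GFP RNAi cells the median SD was 0.16, and 27.2% had a smaller SD than Pgk, 66.8% than Gdh and 22.4% than Nup50. Among the 5033 such probesets in CoVa RNAi cells it was 0.20, with 77.3% below Pgk, 76.7% below Gdh and 78.6% below Nup50. Nup50, with a mean of 405 in CoVa RNAi cells, is itself not in this set and is compared with probesets of higher mean.

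At 48 hr, when CoVa RNA was not yet lower, all 3 genes already were. In that single pair, which has no replicate, the log2 difference was -0.77 for Pgk, -1.29 for Gdh and -1.08 for Nup50, and 0.19 for CoVa. Counted from the lowest of the 9858 differences, Gdh was number 9, Nup50 number 17, Pgk number 48 and CoVa number 8321. A signal at least 1.5-fold lower was found for 114 probesets (1.16%) in this pair and a signal at least 1.5-fold higher for 166 (1.68%). Between GFP RNAi and untransfected cells of the same time, 172 probesets were lower and 180 higher by that fold, with an SD of log2 differences over all probesets of 0.26, against 0.24 between CoVa RNAi and GFP RNAi cells.

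**Figure D2:**
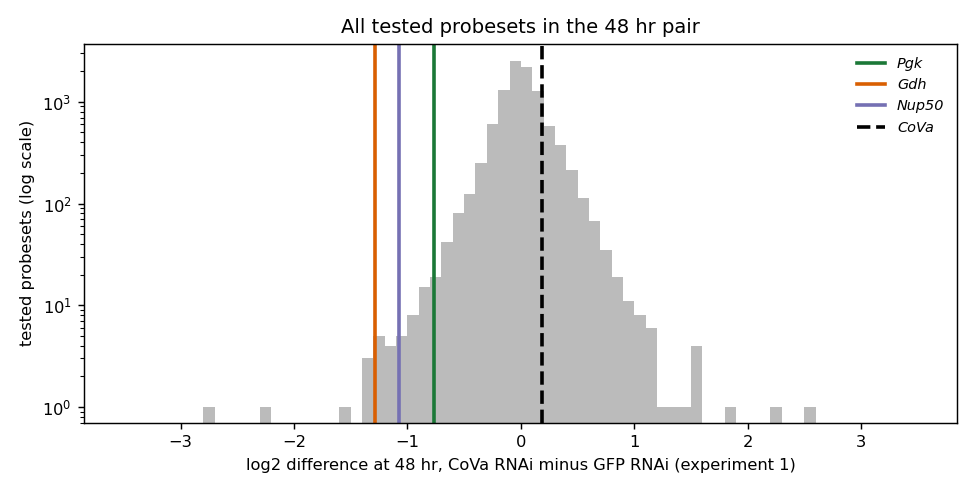
Number of probesets tested (log scale) by log2 difference of CoVa RNAi minus GFP RNAi at 48 hr in experiment 1, with vertical lines at Pgk, Gdh, Nup50 and CoVa. The lines of Gdh (-1.29), Nup50 (-1.08) and Pgk (-0.77) stand in the lower tail, and that of CoVa (0.19, dashed) stands to the right of 0.

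At 72 hr the 3 genes were among the 5 probesets with the lowest differences in both pairs. In experiment 2, Pgk, Gdh and Nup50 were numbers 1, 2 and 3 from the lowest, and CoVa was number 5. In experiment 3 they were numbers 3, 4 and 5, and CoVa was number 232. Only 19 probesets (0.193%) were at least 1.5-fold lower in both 72 hr pairs, and 7 (0.071%) when the 48 hr pair was added, against 9 (0.0913%) that were higher by that fold in these 3 pairs. At 168 hr Pgk, Gdh and Nup50 stood at places 56, 3 and 72 of experiment 1. In experiment 2 their places were 182, 20 and 71 at this time. Those of experiment 3 were 73, 13 and 18. Gdh was thus nearer to the lowest at 168 hr than at 48 hr in experiment 1, whereas all 3 were further from it at 168 hr than at 72 hr in the other experiments. These counts rest on the contrast that chose the genes and are given only as their place in the data.

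In all 10 matched pairs a signal at least 1.5-fold lower was found for 6 probesets (0.0609%), and a signal at least 1.5-fold higher for as many. The 6 lower ones are Gdh, Nup50, Pgk, CG8745, CG44014 and Pabp2. CG8745 had a mean log2 difference of -1.68 ± 0.64 (SD, n = 10 pairs), with a signal of 162 ± 145 in CoVa RNAi cells and 495 ± 250 in GFP RNAi cells. Pabp2, which encodes the nuclear poly(A)-binding protein, had -1.01 ± 0.35, and CG44014 had -1.17 ± 0.55. The 6 higher probesets include Pfk (1.78 ± 0.65), the enzyme of the committed step of glycolysis, and GstE9 (3.69 ± 1.93), a glutathione transferase. The rest of the 6 are CG7841, unc-13, CG10802 and 1635227_at, which has no single symbol in the annotation used here. The authors list 1635227_at as ImpL3, the lactate dehydrogenase. It had the largest mean rise of the 6 (3.79 ± 1.66), with 3731 ± 2414 in CoVa RNAi cells and 223 ± 181 in GFP RNAi cells.

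Set against the CoVa probeset pair by pair, the 3 genes stood below it in most pairs and above it in the pair with the deepest knockdown. Pgk was further down than CoVa in 7 of 10 pairs, Gdh in 9 and Nup50 in 8. The log2 difference of Pgk minus that of CoVa ran from -1.52, in experiment 3 at 72 hr, to 2.36, in experiment 2 at 168 hr. For Gdh it ran from -1.51 to 1.20 and for Nup50 from -1.47 to 1.81, with the same highest pair. At 168 hr in experiment 2, where CoVa RNA had its lowest ratio of 0.0897, Pgk had the ratio nearest to 1 of any pair after 48 hr. In experiment 3, where the CoVa ratio at 168 hr was 0.544, Nup50 had its smallest ratio. Gdh went the other way: its smallest ratio, 0.126, was that of experiment 1 at 168 hr, where the CoVa ratio was 0.271. In experiment 2 its smallest ratio, 0.206, was that of 168 hr, the pair with the lowest CoVa ratio.

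**Figure D3:**
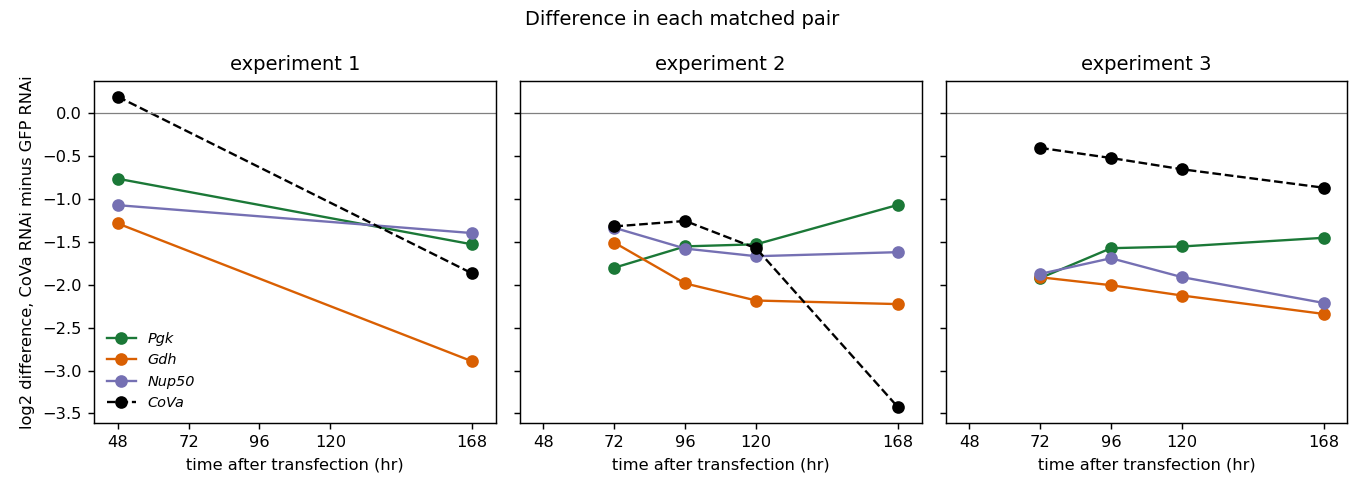
Log2 difference of CoVa RNAi minus GFP RNAi in each matched pair against hours after transfection, in a panel for each experiment, with Pgk in green, Gdh in orange, Nup50 in purple and CoVa as a dashed black line. The 3 colored lines lie between -0.77 and -2.89 in all panels, while the CoVa line lies above them in experiment 3 and drops below them at 168 hr in experiment 2.

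The CoVa loss was compared between experiments 2 and 3, whose times are the same. The CoVa effect, the mean log2 difference over 4 pairs from 72 to 168 hr, was -1.90 ± 1.03 in experiment 2 and -0.62 ± 0.20 in experiment 3 for CoVa itself (SD, n = 4 pairs each). In limma's fit CoVa differed by -1.28 (SE 0.43, 95% interval -2.25 to -0.31, unadjusted p = 0.0154, adjusted p = 0.567). No probeset passed in this comparison (0%), and 773 had an unadjusted p under 0.05. The 4 pairs of an experiment are the times of 1 time course, so the fit sets 1 time course against 1 other and its spread is that over times.

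The effects of the 3 genes in these experiments are given as a description, since the genes were picked for a difference that is alike across experiments, and a small difference between experiments is part of that choice. For Pgk the effect was -1.49 ± 0.30 in experiment 2 and -1.63 ± 0.20 in experiment 3, a difference of 0.14, or of 0.06 without the 168 hr arrays. For Gdh it was -1.98 ± 0.33 in experiment 2 and -2.10 ± 0.18 in experiment 3, a difference of 0.12, or of 0.03 without the 72 hr arrays. For Nup50 it was -1.55 ± 0.15 in experiment 2 and -1.92 ± 0.22 in experiment 3, a difference of 0.37, which was 0.30 without the 168 hr arrays and 0.46 without the 96 hr arrays. All 3 genes had the lower mean in experiment 3, and CoVa had it in experiment 2.

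The control cells set the level from which the 3 genes were lower, and they were examined over time and between experiments. In the 10 GFP RNAi arrays Gdh had a slope of 0.10 log2 per 24 hr (SE 0.03, 95% interval 0.05 to 0.16, unadjusted p = 0.00225, adjusted p = 0.603 from limma). Without the 168 hr arrays its slope was 0.17 (adjusted p = 1.00). Pgk had a slope of 0.03 (SE 0.02, interval -0.02 to 0.08, adjusted p = 0.881) and Nup50 a slope of -0.04 (SE 0.02, interval -0.08 to 0.003, adjusted p = 0.881). No probeset passed in either direction (0%), and 502 had an unadjusted p under 0.05. With the experiment as a block 10 probesets passed as higher and 3 as lower, and the adjusted p was 0.427 for Pgk, 0.170 for Gdh and 0.281 for Nup50. Gdh had a higher signal in GFP RNAi cells at 168 hr than at the first time of each experiment, and a lower one in CoVa RNAi cells in experiments 1 and 2 but not in experiment 3.

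Between the GFP RNAi cells of experiments 2 and 3, 1472 probesets were higher (14.9%) and 2331 lower (23.6%) in experiment 2. Together these are 3803 (38.6%), and, like most probesets, none of the 3 genes was among them. The GFP RNAi arrays are part of the contrast by which the genes were chosen, for a difference alike across experiments. A steady level in these cells is thus in part a result of that choice. This fit, too, sets 1 time course against 1 other, so its errors, intervals and p-values rest on the spread over times. Pgk had 2954 ± 181 in experiment 2 and 3166 ± 256 in experiment 3 (log2 difference -0.10, SE 0.08, interval -0.28 to 0.08, adjusted p = 0.333). Gdh had 2838 ± 408 and 2789 ± 483 (0.03, SE 0.16, interval -0.33 to 0.39, adjusted p = 0.883), and Nup50 had 1297 ± 115 and 1332 ± 29.6 (-0.04, SE 0.07, interval -0.20 to 0.12, adjusted p = 0.661; SD, n = 4 arrays each). Scaling the arrays to a common median gave a median log2 difference over all probesets of 0.29 in this comparison, in place of 0.02, with 5167 probesets higher and 1429 lower. The signs of Pgk (0.19, adjusted p = 0.0856) and Nup50 (0.24, adjusted p = 0.031) then turned, both still below that median, so their order between the control cultures depends on the scaling. Without the 96 hr arrays 395 probesets were higher and 1260 lower, without the 120 hr arrays 578 were higher, and the sign of Gdh turned without the 72 hr arrays (-0.00759, adjusted p = 0.952).

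The untransfected cells had values close to those of GFP RNAi cells at the same time. Pgk had a signal of 2719 in GFP RNAi cells and 2708 in untransfected cells at 48 hr, Gdh 2299 and 2517, and Nup50 1335 and 1221. The ratio of CoVa RNAi to untransfected cells at 48 hr was 0.585 for Pgk, 0.367 for Gdh and 0.505 for Nup50, near the ratios to GFP RNAi cells. For CoVa it was 1.10. Each of these values comes from 1 array.

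Close relatives of Pgk and Gdh were measured on the same arrays at low levels. CG9961, a neighbor of Pgk and itself annotated as a phosphoglycerate kinase, had a signal of 83.5 ± 13.9 in CoVa RNAi cells and 63.2 ± 15.8 in GFP RNAi cells (SD, n = 10 arrays each). The groups overlapped, and CG9961 was lower in 1 of 10 pairs. The gene bb8, which encodes a second glutamate dehydrogenase known from the testis, had 24.5 ± 5.66 in CoVa RNAi cells and 18.9 ± 7.75 in GFP RNAi cells and was lower in 2 of 10 pairs. Neither passed the filter on low values, and neither was lower by 1.5-fold on the log2(intensity + 32) scale in any pair.

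Over the 20 RNAi arrays the patterns of the 3 genes were close, a likeness that includes the difference between conditions by which they were chosen. Pearson's r of log2(intensity + 32) was 0.947 between Pgk and Gdh, 0.953 between Gdh and Nup50 and 0.922 between Pgk and Nup50. Gdh was the probeset most like Pgk and most like Nup50, Nup50 was the most like Gdh, and Pgk was at place 7 for Nup50. The next in likeness to Pgk were ND-B14 (0.876), a subunit of complex I, scb (0.864), an integrin alpha subunit, and Aldh-III (0.843), an aldehyde dehydrogenase. The next to Gdh were scb (0.941), NimC4 (0.923), a receptor for dying cells, and CG15611 (0.912). The next to Nup50 were ND-B14 (0.944), NimC4 (0.933), CG9154 (0.932) and nAChRbeta3 (0.927), a subunit of the nicotinic acetylcholine receptor. CoVa was further off, with r of 0.623 to Pgk, 0.711 to Gdh and 0.694 to Nup50, at places 267, 310 and 405 among all probesets. The most opposite patterns were those of Roe1 for Pgk (-0.891), a cochaperone of the mitochondrial Hsp70, Afg3l2 for Gdh (-0.946), a subunit of a protease of the mitochondrial inner membrane, and CG10802 for Nup50 (-0.959).

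Once each condition's mean was subtracted, little of this likeness was left. The r was 0.314 between Pgk and Gdh, 0.325 between Gdh and Nup50 and 0.0804 between Pgk and Nup50. With CoVa it was -0.139 for Pgk, 0.259 for Gdh and 0.175 for Nup50. The probesets then nearest to Nup50 were bys (0.850), a ribosome assembly factor, l(2)34Fd (0.826), Tbp (0.823), the TATA-binding protein, Nup62 (0.812), a nucleoporin of the central channel, and nclb (0.790). The nearest to Gdh were MESR3 (0.753), CAH7 (0.746), a carbonic anhydrase, EloB (0.732), sub (0.713) and B52 (0.705), a splicing factor. The nearest to Pgk were CG17746 (0.706), yellow-g (0.672), the unnamed 1638328_at (0.647), CG7920 (0.632) and adp (0.629). The 20 arrays share 3 experiments and their culture times, and these coefficients describe them without a test.

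Other genes of the pathways around the 3 members were counted in the same way. In limma's fit over all arrays 1116 probesets (11.3%) had a higher and 638 (6.47%) a lower signal in CoVa RNAi cells, and the median log2 difference of all probesets was 0.04. The fit takes the 10 arrays of a condition, from 3 experiments, as replicates. Of 14 other genes of glycolysis and lactate formation, 11, lactate dehydrogenase not included, had a probeset with a single symbol. 8 of the 11 passed the filter on low values. 7 of these rose, none fell and 1 did not pass the threshold, and their median log2 difference was 0.49. Pfk rose the most (log2 difference 1.78, adjusted p = 3.99e-04), and already stood at 1.03 in the 48 hr pair. Tpi, triose phosphate isomerase, rose by 0.85 (adjusted p = 8.49e-04), and Pgi, which turns glucose phosphate into fructose phosphate, rose by 0.72 (adjusted p = 3.41e-04). The enzymes next to phosphoglycerate kinase in the pathway rose over all arrays, but neither passed without experiment 2. Gapdh1, which makes the substrate of that enzyme, had 5824 ± 794 in CoVa RNAi cells and 4867 ± 348 in GFP RNAi cells (0.25, adjusted p = 0.0219), and Pglym78, the phosphoglycerate mutase that takes its product, had 5551 ± 700 and 4145 ± 539 (0.42, adjusted p = 0.00149; SD, n = 10 arrays each). Eno, enolase, rose by 0.46 (adjusted p = 3.61e-04). Pgk was lower in all 10 pairs, where each of the other 8 glycolytic genes, Hex-A (0.53, adjusted p = 0.0804) included, was higher in 10 of 10. The share of all probesets that kept 1 direction in all 10 pairs, whatever the size of the change, was not counted. With the matched pairs as a block 2539 probesets were higher (25.8%) and 1571 lower (15.9%), together 41.7%, and all 8 glycolytic genes rose, with an adjusted p of 0.00145 for Hex-A. Over all probesets the counts were 251 higher and 75 lower without the 168 hr arrays, 251 and 97 without experiment 2, and 740 higher without experiment 3. Without experiment 2 the number of glycolytic genes that rose was 4, and neither Gapdh1 (adjusted p = 0.146) nor Pglym78 (adjusted p = 0.0777) passed. Without the 168 hr arrays 5 glycolytic genes rose, and Pglym78 passed (adjusted p = 0.0122) and Gapdh1 did not (adjusted p = 0.244).

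Of 29 enzymes and carriers of glutamate and α-ketoglutarate other than Gdh, 20 passed the filter on low values. 5 rose, 2 fell and 13 did not pass, with a median log2 difference of 0.12. In this fit over all arrays 11.3% of all probesets were higher and 6.47% lower. CG4829, a γ-glutamyltransferase that splits glutathione, fell by 1.77 (adjusted p = 9.49e-04), with 219 ± 166 in CoVa RNAi cells and 735 ± 230.3 in GFP RNAi cells. At 48 hr its log2 difference was -0.52, closer to 0 than the -1.29 of Gdh. Gdh was chosen for a low signal from the first time on, and the 48 hr pair has no replicate. GC1, a mitochondrial carrier of glutamate, fell by 0.32 (adjusted p = 0.00594). P5CDh1 (0.62, adjusted p = 0.00166), which makes glutamate from the breakdown of proline, Got1 (0.59, adjusted p = 0.00109), a glutamate oxaloacetate transaminase, Idh (0.46, adjusted p = 7.23e-05), the NADP-dependent isocitrate dehydrogenase, and Idh3b (0.33, adjusted p = 0.00135), a subunit of the NAD-dependent one, rose. So did Gclc (0.42, adjusted p = 0.00464), the catalytic subunit of glutamate-cysteine ligase. With the matched pairs as a block 8 of the 20 rose and 5 fell, where 25.8% of all probesets were higher and 15.9% lower. Without the 168 hr arrays 3 rose and none fell, with an adjusted p of 0.0763 for CG4829, and without experiment 2 the counts were 2 and 0 (adjusted p = 0.0626 for CG4829).

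Of 45 other nucleoporins and transport factors 43 had a probeset, and all 43 passed the filter on low values. 3 rose, 2 fell and 38 did not pass, with a median log2 difference of -0.11. In this fit over all arrays 11.3% of all probesets were higher and 6.47% lower, and neither count of the 43 exceeded these shares. Nup37 (-0.47, adjusted p = 0.00344) and Elys (-0.28, adjusted p = 0.04998), both of the Nup107 subcomplex in vertebrates, fell, and Elys passed in 5 of 14 alternatives. Nup37 was the lowest of the 43, and stood at -0.01 in the 48 hr pair, where Nup50 stood at -1.08. That pair has no replicate, and Nup50 was chosen for a low signal from the first time on. Ranbp21 (0.47, adjusted p = 0.00121), an exportin, msk (0.23, adjusted p = 0.0344), an importin, and Nup98-96 (0.22, adjusted p = 0.0025) rose. Of the nuclear basket, Nup153 had 1224 ± 367 in CoVa RNAi cells and 1393 ± 443 in GFP RNAi cells (-0.13, adjusted p = 0.794) and Mgtor 1075 ± 91.9 and 1071 ± 159 (0.02, adjusted p = 0.931; SD, n = 10 arrays each). The importins α Pen (-0.10, adjusted p = 0.41), Kap-alpha1 (0.08, adjusted p = 0.392) and Kap-alpha3 (0.05, adjusted p = 0.853) did not pass either. With the matched pairs as a block 6 of the 43 rose and 13 fell, set against the 25.8% and 15.9% of all probesets, whereas without the 168 hr arrays, and likewise without experiment 2, none passed in either direction (adjusted p = 0.0954 and 0.0512 for Nup37, and 0.600 and 0.121 for Elys).

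**Figure D4:**
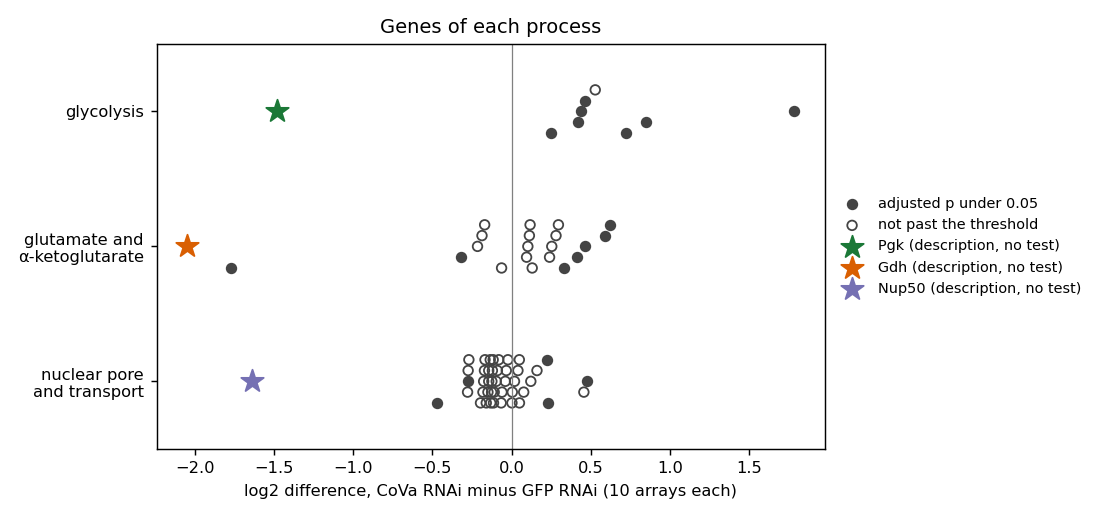
Log2 difference of CoVa RNAi minus GFP RNAi over 10 arrays each for the genes of glycolysis, of glutamate and α-ketoglutarate and of the nuclear pore and transport that passed the filter on low values, 1 circle per gene, filled where the adjusted p from limma was under 0.05. Stars mark Pgk (-1.48), Gdh (-2.05) and Nup50 (-1.64), which were chosen by this contrast and carry no test; among the circles only CG4829 (-1.77) lies in the range of the stars.

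The genes beside each member on the chromosome, taken from the gene order of the RefSeq annotation of Release 6 plus ISO1 MT, were compared in the same fit. Next to Pgk, Cwc25, a splicing factor, had 464 ± 79.8 in CoVa RNAi cells and 510 ± 73.9 in GFP RNAi cells (-0.13, adjusted p = 0.399). Bacc and HemK2 had no named probeset. Next to Gdh, CG5854 fell by 0.21 (adjusted p = 0.0364) and was lower in 10 of 10 pairs, GluProRS, the glutamyl-prolyl-tRNA synthetase, rose by 0.20 (adjusted p = 0.02), and RpS19b did not pass (0.08, adjusted p = 0.913). CG12268 did not pass the filter on low values. Next to Nup50, coil, which encodes the Cajal body protein coilin, fell by 0.45 (SE 0.09, adjusted p = 0.00131) and was lower in 10 of 10 pairs, with 374 ± 66.8 in CoVa RNAi cells and 515 ± 40.7 in GFP RNAi cells (SD, n = 10 arrays each). How common a lower signal in all 10 pairs is among all probesets was not counted. Asap (0.02, adjusted p = 0.938), udd (-0.06, adjusted p = 0.524) and Socs44A (0.13, adjusted p = 0.158) did not pass. The spans of coil and Nup50 overlap in that annotation, as do those of CG5854 and Gdh and of Cwc25 and Pgk, and how far the probes of such a pair can share transcripts was not tested. Pabp2, of the 6 probesets that were lower in all pairs, lies near Nup50, with 4 protein-coding genes between them. Without experiment 2 and without the 168 hr arrays coil still passed (adjusted p = 0.0475 and 0.0166), whereas CG5854 (0.146 and 0.550) and GluProRS (0.222 and 0.340) did not.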

How the data were processed

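The deposited signal intensities of 21 arrays are linear. The authors made cel files with the Gene Chip Operating System and used dChip for normalization, with the median-intensity array as baseline, and their processing notes also name MAS5. Model settings are not given in the sources used here. Of 18952 probesets, 183 controls were left out and 18769 used, with values from 9.60 to 16299. The array annotation gave 1 gene for 13646 of these, several for 402 and none for 4721. Groups, experiments and times came from the labels. The number of arrays limits the precision.

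After adding 32, log2 values of the 9858 probesets with an intensity of 100 or more on 3 or more of the 20 RNAi arrays were fitted with limma 3.58.1 (R 4.3.3, statmod 1.5.0; eBayes, Benjamini-Hochberg adjustment over all of them, threshold 0.05), with no block unless stated. The fits were tested on simulated data. Matched arrays come from the same time course, and their deviations from the means of a condition and time correlated at 0.956 (72 hr), 0.774 (96 hr), 0.785 (120 hr) and 0.582, 0.596 and 0.709 (168 hr, experiments 1 to 3). Of several probesets of a gene, the one with the highest mean stood for it.

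The members, gene lists and tests were chosen with earlier results of these data known. The text names the members, CoVa, the relatives CG9961 and bb8, the 5 probesets most like each member, those at least 1.5-fold lower or higher in all pairs, the genes of each list with the largest changes, and chromosomal neighbors. The least like probesets, Nup153, Mgtor, the importins α and the enzymes beside Pgk in its pathway were named after their values were seen. Alternatives changed the normalization, the added value, the filter, the eBayes settings, blocks, times and experiments. No probeset carried the single symbol Gapdh2, PyK or ImpL3, and these genes are not in the counts of glycolytic genes. Of them only 1635227_at, which the authors list as ImpL3, is described, with the probesets that were higher in all pairs.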

Additional observations from a re-analysis of the deposited data

Results flagged for a closer look

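The log2 difference of CoVa itself in experiment 2 at 168 hr, -3.43, lay far below the other 3 pairs of that time course, with a share of 0.853 of the whole range between it and the nearest of them (n = 4 pairs). No value of Pgk, Gdh or Nup50 stood apart in this way. Of 36 groups of 4 to 10 values examined, this was the only one, and chance alone marks about 1 group in 20.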

How the results depend on the processing

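The mean log2 differences of Pgk, Gdh and Nup50 kept their direction under every alternative run and moved by less than 1 SD over pairs. They ran from -1.56 to -1.38 for Pgk, from -2.13 to -1.86 for Gdh and from -1.74 to -1.45 for Nup50. These genes were chosen by this contrast, and each was at least 1.5-fold lower in all 10 pairs. Leaving out times or experiments could thus not turn the direction, and the SD is that over the same pairs. Between the GFP RNAi cells of experiments 2 and 3 the sign turned for Pgk (0.19) and Nup50 (0.24) with a common median, and for Gdh with quantile normalization (-0.0708) and without the 72 hr arrays (-0.00759). The number of probesets in that comparison was 5167 higher and 1429 lower with a common median, 395 and 1260 without the 96 hr arrays, and 578 higher without the 120 hr arrays. For the slope in GFP RNAi cells 1 probeset passed as higher with quantile normalization and 1 with a common median, 10 higher and 3 lower with the replicate block of the experiment, and between 0 and 4 higher when 1 experiment was left out. Gdh had a slope of 0.17 without the 168 hr arrays. For the CoVa effect of experiment 2 against 3, 1 lower probeset passed with no filter and 2 without the 72 hr arrays. Over all arrays, CoVa RNAi against GFP RNAi gave 557 higher and 378 lower probesets with a common median, 1032 lower with the replicate block of the experiment, 251 and 75 without the 168 hr arrays, 2539 and 1571 with the replicate block of matched pairs, and between 251 and 964 higher and between 97 and 447 lower when 1 experiment was left out.

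Of the lists, glycolysis had between 4 and 7 higher genes when 1 experiment was left out and 8 with the matched pairs as a replicate block. For glutamate, 8 were higher and 5 lower with the replicate block of matched pairs, 3 higher and 0 lower without the 168 hr arrays, and between 2 and 6 higher and between 0 and 2 lower when 1 experiment was left out. For nuclear transport, the number lower was 4 with quantile normalization, 1 with 16 added before log2, with no filter, with the trend and robust setting of eBayes and with the methods' t-test, 5 with the replicate block of the experiment, 0 without the 168 hr arrays, and 13 with the replicate block of matched pairs. The number higher was 1 with a common median, 0 without the 168 hr arrays and 6 with the replicate block of matched pairs. Leaving out 1 experiment gave between 0 and 3 higher and between 0 and 1 lower. None of 23 named genes changed sign in 14 alternatives, but not all passed the threshold in each. Most were named for a change in the same fit, and the alternatives used the same arrays or a part of them. A kept sign is therefore little evidence. Why the counts of the lists changed was not tested, and fewer arrays entered where a time or an experiment was left out. A signal under 100 is near the background, where a difference is uncertain.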
